A study of Homo sapiens with 6 samples.

Results

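TXNIP, the thioredoxin-interacting protein, was examined with its arrestin-domain relatives ARRDC4, ARRDC3, ARRDC2 and ARRDC1, the glucose-sensing transcription factors MLXIP and MLX, the glucose transporters SLC2A1 and SLC2A3, and thioredoxin itself, TXN. A locus was taken when one of its gene names was on this list. Each of the 10 genes was found once, in a locus that carries no other name, out of 62828 loci. The genes were chosen by the knockdown and control FPKM of TXNIP and ARRDC4 in these libraries, with relatives and partners added, so every ratio below is a description and carries no test. All 10 passed the minimum mean of 1 FPKM over the 6 libraries, as did 12838 loci in all. FPKM counts the fragments that fall on each kilobase of a transcript, relative to library size.

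The cells were K562, an established human chronic myelogenous leukemia line with erythroid features. They had been transfected with 300 nM siRNA against HNRNPU, a nuclear RNA-binding protein, or with control oligos, and grown in the same medium. Whole-cell, nuclear and cytosolic RNA gave 3 libraries of knockdown and 3 of control cells. Each of the 6 groups is 1 library, so no difference has a replicate check. The sources used here do not say whether the 3 preparations of a condition share a culture.

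The libraries matched their labels. The HNRNPU locus, which is merged with HNRNPU-AS1, had 55.3, 63.7 and 34.9 FPKM in knockdown whole-cell, nuclear and cytosolic RNA, against 129, 163 and 158 FPKM in the control. All 7 erythroid markers of K562 lay between 6.14 and 1560 FPKM in every library, and 5 markers of other lineages between 0 and 2.12 FPKM. MALAT1, a nuclear RNA, was higher in nuclear than in cytosolic RNA in both conditions, and RPLP0, a ribosomal protein mRNA, was lower. The deepest library was the knockdown nuclear one, where an FPKM of 1 on a kilobase equalled about 39.1 fragments, and the shallowest the control cytosolic one, with 13.4.

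TXNIP is an alpha-arrestin that binds and inhibits thioredoxin and promotes the endocytosis of glucose transporters. Its gene, and that of its relative ARRDC4, are classic targets of the MLXIP-MLX dimer. MLXIP, also called MondoA, senses glucose 6-phosphate, enters the nucleus with MLX and binds carbohydrate response elements, which are paired E-box-like elements set a fixed distance apart. The alpha-arrestins also act as adaptors that bring ubiquitin ligases of the NEDD4 family to membrane proteins.

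The promoters of the 2 genes with the highest ratios are shown with E-box-like letters marked. The MLX promoter, which is not printed, also holds CACGTG. Whether the dimer acts on any of these genes here was not tested. The sequences are from RefSeq on GRCh38.p14, 5′ to 3′ along the gene, from base 250 to base 51 before the start. TXNIP lies at chr1:145996630-145996829 on the minus strand and ARRDC4 at chr15:97960453-97960652 on the plus strand. Capitals mark a pair of CACGNG elements with 5 bases between them in TXNIP, and a single CACGTG in ARRDC4.
TXNIP: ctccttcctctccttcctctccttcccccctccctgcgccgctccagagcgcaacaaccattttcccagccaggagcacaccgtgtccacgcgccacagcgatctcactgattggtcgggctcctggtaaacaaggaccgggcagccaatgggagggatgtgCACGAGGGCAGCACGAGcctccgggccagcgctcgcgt
ARRDC4: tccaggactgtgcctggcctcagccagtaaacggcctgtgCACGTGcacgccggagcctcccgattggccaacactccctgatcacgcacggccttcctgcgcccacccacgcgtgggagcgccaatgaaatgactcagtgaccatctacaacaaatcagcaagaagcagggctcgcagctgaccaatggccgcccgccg

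Both strands of the 250 bases before each start were searched for the paired motif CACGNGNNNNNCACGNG, for CACGTG and for the single element CACGNG. The pair is in 16 of 35116 RefSeq promoters (0.0456%), and its TXNIP copy spans bases 88 to 72 before the start. CACGTG is in 2228 promoters (6.34%). Of the members it is found in ARRDC4, 210 bases before the start, and in MLX, 50 bases before the start. A RefSeq promoter was found for 9 of the 10 genes (not SLC2A3), 12 promoters in all. The paired motif was in none of these but the TXNIP promoter shown, so a second TXNIP start lacks it. The single element CACGNG, which includes CACGTG and each part of a pair, is in 9364 promoters (26.7%). It is found before TXNIP, ARRDC4, ARRDC3, ARRDC2, MLX and TXN, so it is not particular to the 2 genes shown. A match describes letters only, and binding was not measured.

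TXNIP had the highest ratio of the 10 genes in each preparation. Its locus spans chr1:145438469-145442635 on hg19, a short gene of up to 8 exons. It had 132 FPKM in knockdown whole-cell RNA against 47.7 FPKM in the control, 215 against 72.3 FPKM in nuclear RNA, and 173 against 69.5 FPKM in cytosolic RNA. All 3 knockdown libraries lay above all 3 control libraries. The log2 ratios, taken here and below as differences of log2(FPKM + 0.1), were 1.47, 1.57 and 1.32, which are 2.76-fold, 2.98-fold and 2.49-fold. The counting ranges of these ratios, 95% ranges from estimated fragments that cover counting error only, were 1.38 to 1.55, 1.502 to 1.644 and 1.22 to 1.41. Ordered by FPKM, TXNIP stood at place 240 of the 12838 loci in knockdown whole-cell RNA, against 750 in the control. It stood at 176 against 526 in nuclear RNA and at 431 against 1262 in cytosolic RNA. In these bulk libraries more cells with the transcript and more transcript per cell cannot be told apart.

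**Figure D1:**
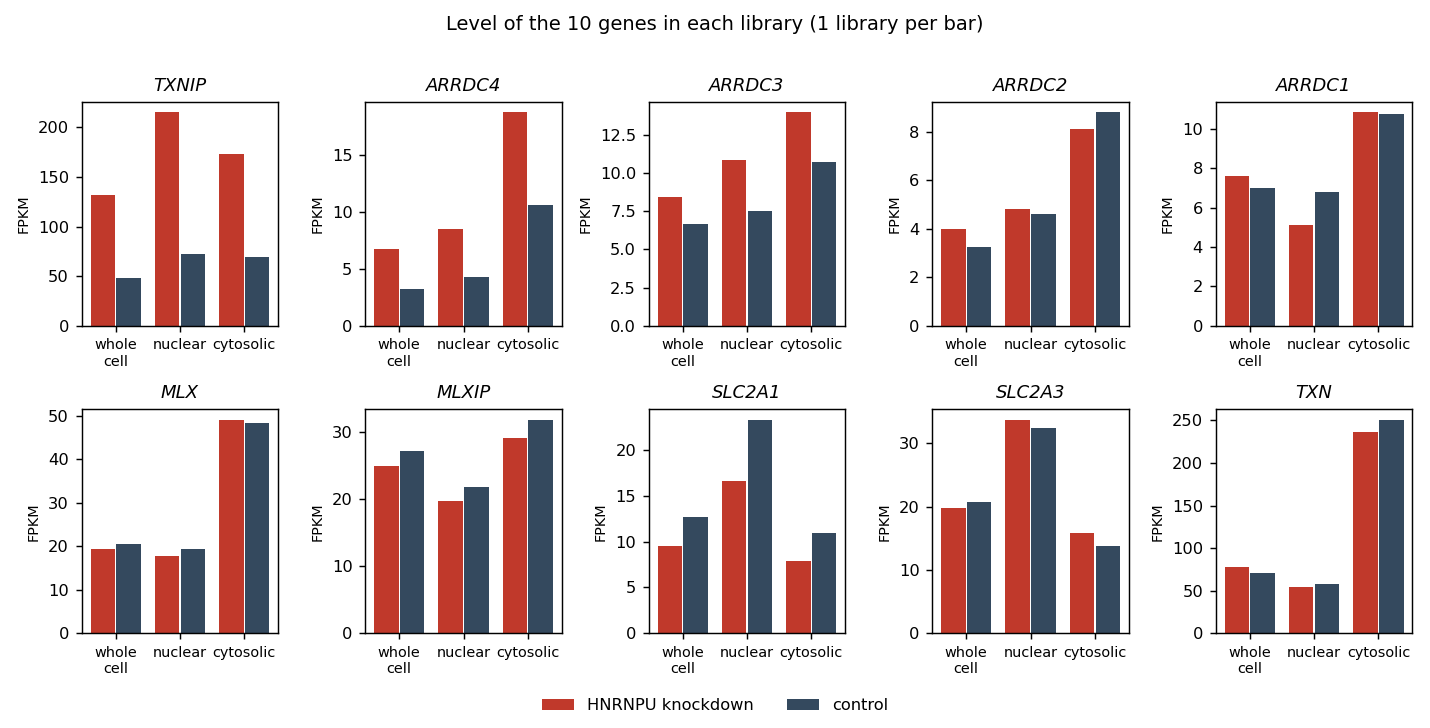
FPKM (vertical axis, from 0, a separate scale for each gene) of the 10 genes in whole-cell, nuclear and cytosolic RNA, knockdown in red left of control in dark blue, 1 library per bar. The knockdown bars of TXNIP reach 132, 215 and 173 FPKM beside control bars of 47.7, 72.3 and 69.5 FPKM.

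ARRDC4, an alpha-arrestin close to TXNIP that also limits glucose uptake, was the second gene higher in all 3 preparations by at least 1.5-fold. It had 6.72 FPKM in knockdown against 3.22 FPKM in control whole-cell RNA, 8.48 against 4.30 FPKM in nuclear RNA, and 18.8 against 10.6 FPKM in cytosolic RNA. Within each preparation the knockdown library was the higher, but the control cytosolic library exceeded both other knockdown libraries. The log2 ratios were 1.04, 0.96 and 0.82, with counting ranges of 0.83 to 1.25, 0.79 to 1.14 and 0.67 to 0.96. In cytosolic RNA the counting range lay under 2-fold, and in the other preparations it held the 2-fold line. The ARRDC4 locus (chr15:98462784-98517068 on hg19) spans 54285 bases, 4.13 times the gene in GENCODE release 29, so fragments from outside that gene could be counted in it.

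At least 2-fold higher in the knockdown were 2 of the 10 genes in whole-cell RNA, TXNIP and ARRDC4, where 1.36% of the 12838 loci were. TXNIP alone passed in nuclear RNA (1.04% of all loci) and in cytosolic RNA (2.62%). None of the 10 was at least 2-fold lower, where 1.29%, 1.5% and 2.63% of all loci were. At least 1.5-fold higher in all 3 preparations were TXNIP and ARRDC4, and 0.343% of all loci. None was at least 1.5-fold lower in all 3 (0.234% of all loci). Since the genes were picked with these ratios known, nothing is read from these shares. With other scalings or pseudocounts the ARRDC4 whole-cell ratio ranged from 0.87 to 1.15, so its place at the 2-fold line depends on the processing.

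ARRDC3, an adaptor for beta-adrenergic receptors and NEDD4-family ligases, was higher in each preparation at a smaller size. It had 8.43 FPKM in knockdown against 6.62 FPKM in control whole-cell RNA, 10.8 against 7.53 FPKM in nuclear RNA and 13.96 against 10.73 FPKM in cytosolic RNA. Its log2 ratios were 0.34, 0.52 and 0.38, each higher in the knockdown and all under 1.5-fold. The counting ranges were -0.0034 to 0.69, 0.23 to 0.81 and 0.05 to 0.71, from about 123 to 362 fragments a library.

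ARRDC2, another alpha-arrestin, had 3.99 FPKM in knockdown against 3.26 FPKM in control whole-cell RNA, 4.81 against 4.63 FPKM in nuclear RNA and 8.13 against 8.82 FPKM in cytosolic RNA. Its counting range held 0 in each preparation. ARRDC1, which drives the budding of small vesicles at the plasma membrane, had 7.63 against 7.03 FPKM in whole-cell RNA, 5.12 against 6.81 FPKM in nuclear RNA and 10.9 against 10.8 FPKM in cytosolic RNA. Only its nuclear ratio, -0.40, had a counting range clear of 0 (-0.76 to -0.05). The remaining relative ARRDC5 was listed at 0 in all 6 libraries.

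Summed over the 5 alpha-arrestin genes, the level was 159 FPKM in knockdown against 67.8 FPKM in control whole-cell RNA, 245 against 95.6 FPKM in nuclear RNA and 225 against 110 FPKM in cytosolic RNA. TXNIP made up 83.1% of that sum in knockdown against 70.3% in control whole-cell RNA. It made up 88.0% against 75.6% in nuclear RNA and 77.0% against 62.9% in cytosolic RNA. ARRDC4 was the lowest of the 5 in control whole-cell and nuclear RNA. It exceeded ARRDC3 in knockdown cytosolic RNA, at 1.34 times its FPKM, against 0.990 times in the control.

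**Figure D2:**
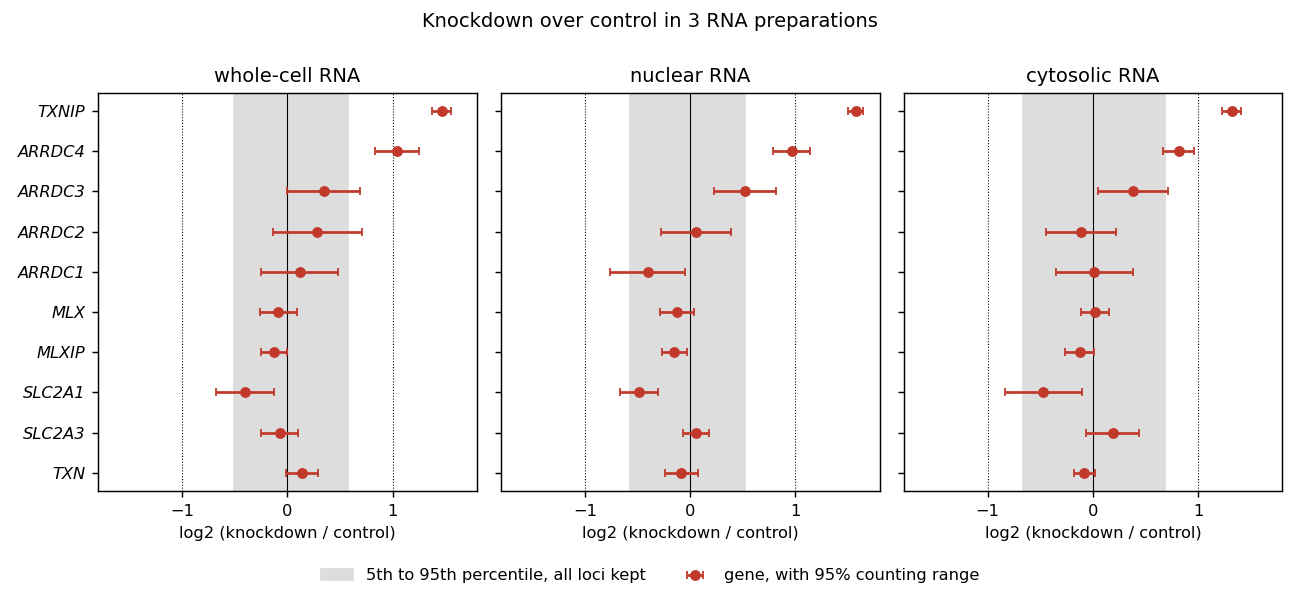
Log2 ratio of knockdown to control (horizontal axis) for the 10 genes in 3 preparations, with bars for the 95% counting range, a grey band from the 5th to the 95th percentile of the 12838 loci averaging 1 FPKM or more, and dotted lines at 2-fold. TXNIP and ARRDC4 lie right of the band in each panel. SLC2A1 and MLXIP lie left of 0 but inside the band in each.

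The upstream factors had ratios closer to 0. MLXIP had 24.8 FPKM in knockdown against 27.2 FPKM in control whole-cell RNA, 19.7 against 21.8 FPKM in nuclear RNA and 29.1 against 31.8 FPKM in cytosolic RNA. The MLXIP locus spans 115267 bases, 1.68 times the gene in GENCODE release 29, so fragments from outside that gene could be counted in it. The log2 ratios of MLXIP, -0.13, -0.15 and -0.12, were below 0 in each preparation, and the cytosolic counting range (-0.26 to 0.01) held 0. MLX, its dimer partner, had 19.3 against 20.5 FPKM, 17.9 against 19.5 FPKM and 49.1 against 48.3 FPKM in the same order. The counting ranges of MLX held 0 throughout, and together they reached from -0.28 to 0.16. RNA level does not show how much MLXIP protein is in the nucleus, which was not measured.

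SLC2A1 encodes GLUT1, the basal glucose transporter of most cells and the main one of red cells. It had 9.53 FPKM in knockdown against 12.6 FPKM in control whole-cell RNA, 16.6 against 23.3 FPKM in nuclear RNA and 7.88 against 10.97 FPKM in cytosolic RNA. The level was 24.6%, 28.6% and 28.1% lower in the knockdown (log2 ratios of -0.40, -0.48 and -0.47), and no counting range reached 0. All 3 differences were under 1.5-fold and inside the 5th to 95th percentile of all loci. Of all loci, 13.2% were lower in all 3 preparations and 24.6% higher in all 3, with no minimum size. The 12838 loci were also ordered by whichever of their 3 ratios was nearest to 0, with mixed signs set to 0. In that order SLC2A1 stood at place 103 from the lowest. No test goes with this place.

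SLC2A3 encodes GLUT3, a transporter of high affinity. It had 19.8 against 20.8 FPKM in whole-cell RNA, 33.7 against 32.5 FPKM in nuclear RNA and 15.8 against 13.9 FPKM in cytosolic RNA, and its counting ranges held 0. SLC2A3 therefore had 2.08 times the FPKM of SLC2A1 in knockdown whole-cell RNA, against 1.65 times in the control. It had 2.03 against 1.40 times in nuclear RNA and 2.00 against 1.26 times in cytosolic RNA. SLC2A14 is a near-identical copy of SLC2A3, and the counting could split fragments between them. Its FPKM was between 0.861 and 2.43 in the 6 libraries.

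TXN, the small redox protein that TXNIP binds, had 77.4 FPKM in knockdown against 70.3 FPKM in control whole-cell RNA, 54.4 against 57.7 FPKM in nuclear RNA and 237 against 251 FPKM in cytosolic RNA. Its counting ranges held 0 in all 3 preparations. The FPKM of TXNIP over that of TXN, both per length, was 1.70 in knockdown against 0.678 in control whole-cell RNA. It was 3.96 against 1.25 in nuclear RNA and 0.733 against 0.278 in cytosolic RNA. TXNIP was thus above TXN in knockdown but not in control whole-cell RNA, above it in both nuclear libraries and below it in both cytosolic ones.

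The genes differed widely in where their RNA lay. In the control, nuclear over cytosolic FPKM reached on the log2 scale from -2.12 for TXN to 1.22 for SLC2A3. SLC2A1 had 2.11 times the FPKM in nuclear as in cytosolic knockdown RNA, against 2.12 times in the control. SLC2A3 was close to it, with 2.14 times against 2.35 times. TXN stood at the other end, with 4.35 times the FPKM in cytosolic as in nuclear knockdown RNA and 4.34 times in the control. TXNIP had 0.31 in the knockdown against 0.06 in the control, above the median of all loci (-0.47 against -0.44). The other alpha-arrestins were on the cytosolic side in both conditions, with ARRDC4 at -1.14 against -1.29. Such positions depend on how the libraries are scaled: equal totals without mitochondrial and small RNA moved the median of all loci by 0.90 in both conditions.

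**Figure D3:**
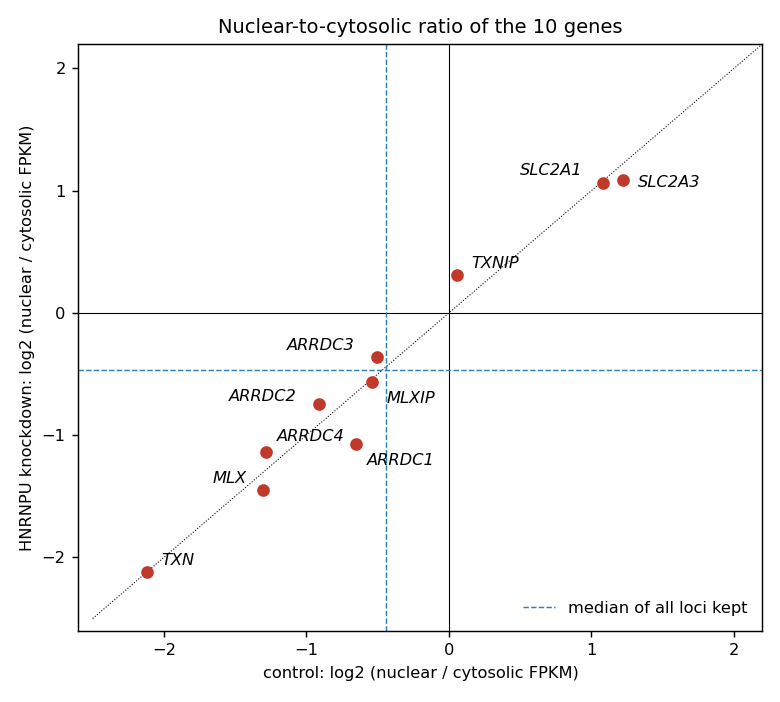
Nuclear over cytosolic FPKM on the log2 scale in the knockdown (vertical axis) against the control (horizontal axis), 1 point a gene; the dotted diagonal marks equal ratios and the dashed lines the medians of all loci averaging 1 FPKM or more. SLC2A1 and SLC2A3 lie at the nuclear end and TXN at the cytosolic end, and TXNIP lies above the diagonal.

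Set between conditions, the position of the RNAs differed little. The shift, the nuclear-to-cytosolic log2 ratio in the knockdown minus that in the control, was 0.26 for TXNIP, with a counting range of 0.14 to 0.37. With the mean transcript length used for these ranges, this was the one shift whose counting range was clear of 0. The width of a range depends on that length. The shift of ARRDC1 was larger in size, -0.42, but its range reached from -0.93 to 0.10. Those of ARRDC4, ARRDC3 and ARRDC2 were 0.15, 0.14 and 0.17. MLX had -0.15, SLC2A3 -0.13, MLXIP -0.02, SLC2A1 -0.01 and TXN -0.00060. No member was shifted 2-fold, where 3.28% of all loci were to the nucleus and 3.82% to the cytosol.

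The genes around TXNIP on the chromosome had other ratios. Within 100 kb of its locus, 9 of 18 other loci passed the minimum. POLR3GL, a subunit of RNA polymerase III that lies 13601 bases away, had 16.0 FPKM in knockdown against 17.7 FPKM in control whole-cell RNA. HFE2, which encodes the iron regulator hemojuvelin, lies 20924 bases away on the other side. It had 0.690 against 1.17 FPKM in whole-cell RNA, 0.627 against 0.881 FPKM in nuclear RNA and 1.65 against 2.64 FPKM in cytosolic RNA. LIX1L, ANKRD34A, RBM8A (a core protein of the exon junction complex), GNRHR2 and the merged NBPF10 locus had log2 ratios between -0.09 and 0.31 in all preparations. RNVU1-6, a variant U1 small nuclear RNA, was listed at 0 in 3 libraries. It had 87.4 FPKM in knockdown nuclear RNA, where the control was listed at 0, and 67.6 against 77.8 FPKM in cytosolic RNA. Its locus, chr1:145382757-145382920 on hg19, is shorter than the 220 bases taken off lengths here to estimate fragments. On so short a locus few fragments can give a high FPKM. Beside ARRDC4 the lncRNA LINC00923 passed, with 4.61 against 3.44 FPKM in whole-cell, 2.80 against 3.17 FPKM in nuclear and 1.29 against 0.788 FPKM in cytosolic RNA.

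Likeness to TXNIP was measured as the Euclidean distance between the 3 log2 ratios, over the 8449 other named loci whose mean was 5 FPKM or more. The nearest was KLF10, a zinc finger factor induced by TGF-beta, at a distance of 0.36, with ratios of 1.25, 1.32 and 1.19. COX20, which helps assemble cytochrome c oxidase and whose locus overlaps that of HNRNPU, came next at 0.60. ARRDC4 followed at 0.90, and the lncRNA ZNF385D-AS1 lay at 1.04. The loci nearest to SLC2A1 were ZBED6CL, ABHD5, METTL12, CHTF18 and AXIN1, at distances of 0.02 to 0.13. These distances compare ratios in 3 pairs of libraries.

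Other genes of the pathway were described by 8 lists, beside all loci, whose median log2 ratios were 0.06, 0.03 and 0.03 for whole-cell, nuclear and cytosolic RNA. Across the lists the medians lay between -0.06 and 0.12 in whole-cell RNA, between -0.11 and 0.14 in nuclear RNA and between -0.21 and 0.24 in cytosolic RNA. Of the list loci that passed the minimum mean, those at least 2-fold apart in any preparation were KLF10, ITCH and MLXIPL. Of all loci, 1.36%, 1.04% and 2.62% were at least 2-fold higher in whole-cell, nuclear and cytosolic RNA. At least 2-fold lower were 1.29%, 1.5% and 2.63%. At such shares few loci of a short list would pass, so nothing is read from the counts, for the lists together or singly.

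Of 10 loci with genes described as targets of MLXIP or its paralog MLXIPL, KLF10 alone was 2-fold higher, in all 3 preparations. Per preparation, 1.04% to 2.62% of all loci were at least 2-fold higher, and the list was drawn up with earlier results known. KLF10 is also the locus nearest to TXNIP above, so nothing is read from this count. It had 7.96 against 3.29 FPKM in whole-cell RNA, 9.51 against 3.76 FPKM in nuclear RNA and 16.2 against 7.03 FPKM in cytosolic RNA. G6PC3, a glucose 6-phosphatase put on the list as a relative of the target G6PC, had log2 ratios of 0.70, 0.21 and 0.55. PKLR, the red cell and liver pyruvate kinase, had -0.05, -0.32 and -0.30, and ELOVL6, a fatty acid elongase, had -0.26, -0.36 and -0.05. HK2, a hexokinase, had -0.16, 0.04 and -0.05. The median of these 10 loci was 0.10, 0.14 and 0.12.

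Among the 10 loci of the MYC, MAX and MLX network, MLXIPL, the paralog of MLXIP also called ChREBP, was 2-fold lower in cytosolic RNA (0.657 against 1.57 FPKM), with 3.03 against 2.91 FPKM in whole-cell RNA. It was no longer 2-fold lower with a pseudocount of 1 or after quantile normalization, and its mean was under 5 FPKM. MYC had 34.8 FPKM in both whole-cell libraries, 50.5 against 47.4 FPKM in nuclear RNA and 62.8 against 62.4 FPKM in cytosolic RNA. MAX, its partner, had log2 ratios of -0.16, 0.03 and -0.35. The repressor MNT had 0.16, -0.19 and -0.53.

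Of 8 loci of NEDD4-family ligases, which alpha-arrestins recruit, ITCH was 2-fold higher in whole-cell RNA (27.4 against 13.6 FPKM, log2 ratio 1.01). With a pseudocount of 1, or with any of the 3 other scalings, ITCH was under 2-fold. It had 0.64 in nuclear and 0.23 in cytosolic RNA. NEDD4 had -0.03, 0.47 and 0.30. The beta-arrestins ARRB1 and ARRB2, which desensitize G protein-coupled receptors, had values below 0 in all preparations, from -0.54 to -0.26 for ARRB1 and from -0.21 to -0.12 for ARRB2. VPS26A, a retromer subunit with an arrestin fold, had 0.11, 0.26 and -0.0011.

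None of the 20 glycolysis loci was 2-fold apart, and their medians were 0.09, 0.03 and -0.02. ENO1, an enolase, had 0.16, 0.16 and 0.18, and LDHA, a lactate dehydrogenase subunit, had 0.36, 0.04 and 0.14. PFKFB3, which makes fructose 2,6-bisphosphate, had 0.17, 0.36 and 0.08. ALDOC, an aldolase, had 0.19, -0.24 and -0.38. None of the 17 loci of the thioredoxin and peroxiredoxin list was 2-fold apart either. PRDX4, the peroxiredoxin of the endoplasmic reticulum, had the largest mean ratio of that list, with 29.6 against 18.1 FPKM in whole-cell, 52.0 against 40.9 FPKM in nuclear and 41.9 against 25.3 FPKM in cytosolic RNA. TXNRD1, the cytosolic thioredoxin reductase, had -0.22, -0.36 and -0.15.

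Of 12 further glucose transporter genes, 5 passed the minimum, and SLC2A8 had the lowest ratio among them, -0.84 in cytosolic RNA. It had 0.07 in whole-cell and -0.33 in nuclear RNA, at a mean of only 2.28 FPKM. The SLC2A11 locus is merged with MIF, so its 39.9 against 32.5 FPKM in whole-cell RNA cannot be assigned to the transporter. Of 7 loci of AMPK and its kinases, PRKAA1, a catalytic subunit, had 0.38, 0.34 and -0.10, and none was 2-fold apart.

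**Figure D4:**
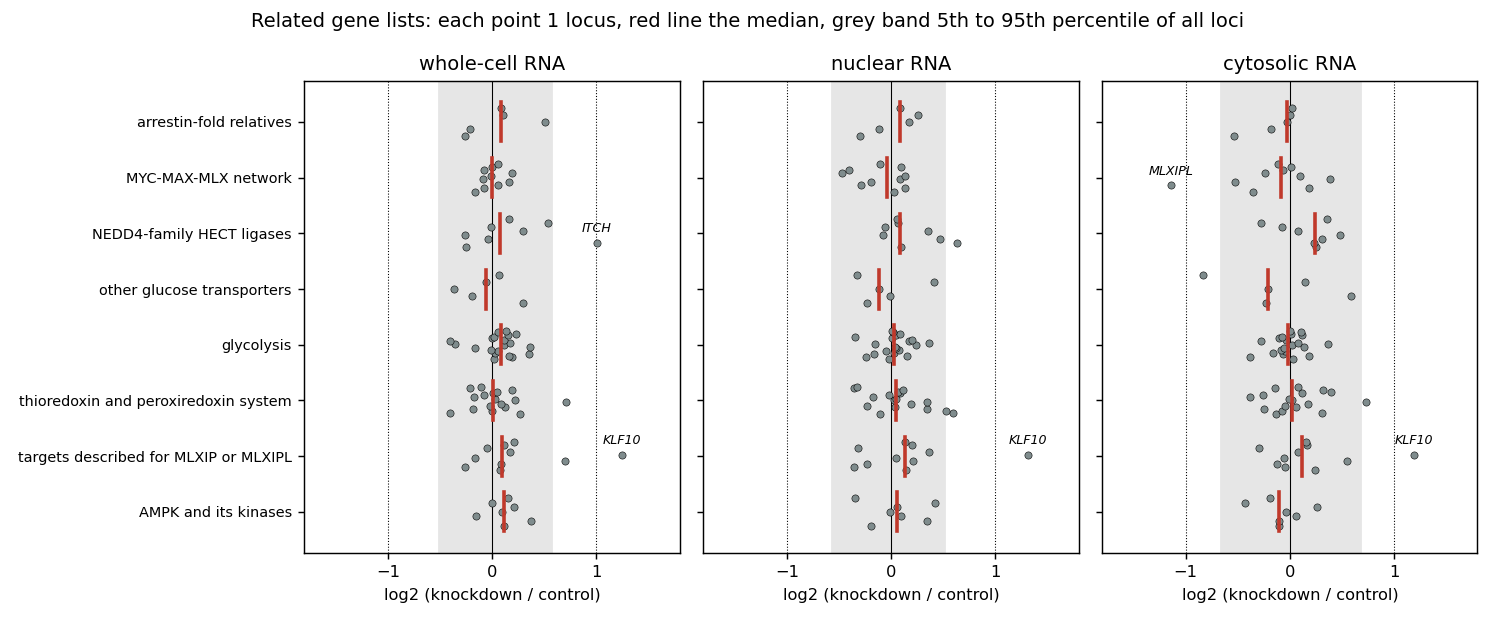
Log2 ratio of knockdown to control (horizontal axis) for the loci of 8 related gene lists averaging 1 FPKM or more, 1 point a locus, with the list median in red, the 5th to 95th percentile of all loci in grey and dotted lines at 2-fold. KLF10 lies beyond 2-fold in all 3 panels, ITCH in whole-cell RNA and MLXIPL in cytosolic RNA.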

How the data were processed

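The authors deposited FPKM values, 1 column per library, a unit inferred from the values and the named tools. RNA was extracted with TRIzol, depleted of ribosomal RNA and made into strand-specific libraries, per the labels' protocols. TopHat2 2.0.13, Cuffdiff 2.2.1, CASAVA and FastQC appear without roles in the submitters' processing notes, as do the builds mm9 and hg19. The sources used here do not give the annotation, the library scaling or whether counting used the strand. Starts in the table count from 0, as 22163 of 30913 loci have exactly the span of their GENCODE release 29 gene that way, so 1 was added.

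Loci averaging 1 FPKM or more over the 6 libraries were kept. Ratios are differences of log2(FPKM + 0.1), which understate the change of low loci. With 1 library per group no test was run. A test over the 3 preparations, which could not go below an exact two-sided p of 0.25 in pairs, was left out because separate cultures are not stated. Size rules of 2-fold, or 1.5-fold in all 3 preparations, were used instead. The members and lists were chosen with earlier results of these data known. Named genes are the 10 members, HNRNPU, loci within 100 kb of TXNIP and ARRDC4, and the 5 loci nearest to TXNIP. From each list came those 2-fold apart and up to 4 with the largest absolute mean ratios at a mean of at least 5 FPKM. ARRDC5, MYC, HK2, SLC2A8, SLC2A14 and the loci nearest to SLC2A1 were added after their values were seen. Some loci that this rule picks are not reported here.

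Fragments were estimated from the FPKM step of 1 fragment on single-exon loci (length less 220 bases) and from the mean transcript length in GENCODE release 29. The code that computes the ratios was checked on simulated libraries with known differences. Other pseudocounts, scalings, minimum means and single-name loci were tried. Python 3.11.15, numpy 2.4.6, pandas 2.3.3 and matplotlib 3.10.9 were used.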

Additional observations from a re-analysis of the deposited data

How the results depend on the processing

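The 40 ratios and shifts of the 10 genes moved by less than their counting range under both other pseudocounts and the 3 other scalings. Of them 36 kept their sign throughout, and the 4 that changed it, the cytosolic ratios of ARRDC1 and MLX and the shifts of SLC2A1 and TXN, were at most 0.02 in size. TXNIP ranged from 1.40 to 1.47 in whole-cell, 1.54 to 1.61 in nuclear and 1.24 to 1.34 in cytosolic RNA. ARRDC4 ranged from 0.87 to 1.15, 0.84 to 1.05 and 0.69 to 0.84. The number of members at least 2-fold higher in whole-cell RNA was therefore 1 with a pseudocount of 1, with each library scaled to the median ratio and with totals equalized after leaving out mitochondrial and small RNA, against 2 as reported. In nuclear RNA it was 2 after quantile normalization, against 1. With the mean length of coding transcripts only, an alternative chosen after seeing the data, the lower end of the ARRDC3 counting range was 0.18, 0.38 and 0.22 in whole-cell, nuclear and cytosolic RNA. Pairing the conditions over the 3 preparations was not used as a test, because the labels carry no replicate numbers and do not state separate cultures. The count of loci at least 2-fold higher on the list of MLXIP and MLXIPL targets was 1 in each preparation under every alternative run. The counting ranges of ARRDC1, ARRDC2, ARRDC3 and SLC2A1 are wide and cover counting error only. In the library where each gene had its fewest fragments, these numbered from 88.9 to 123.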

Other observations

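The 16 RefSeq promoters that hold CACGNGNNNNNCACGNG in the 250 bases before the start belong to 16 genes, and 14 of these have a locus in the table. Beside TXNIP, 10 of them had a mean of at least 1 FPKM. They were picked by the letters of the promoter alone, and the search was made after the TXNIP values were known. None of the 10 was 2-fold apart. Of all loci, 1.04% to 2.63% were so per direction and preparation, so nothing is read from this count. The log2 ratios of the 10 had a median of 0.08 in whole-cell RNA (-0.56 to 0.61), 0.08 in nuclear RNA (-0.48 to 0.38) and 0.09 in cytosolic RNA (-0.37 to 0.47). STX12, a syntaxin of endosomes, had 8.45 FPKM in knockdown against 5.51 FPKM in control whole-cell RNA, 6.38 against 4.86 FPKM in nuclear RNA and 14.9 against 11.3 FPKM in cytosolic RNA. GFPT1, the first enzyme of the hexosamine pathway, which uses fructose 6-phosphate, had 23.6 against 22.3 FPKM, 25.4 against 23.7 FPKM and 46.4 against 42.9 FPKM in the same order. RAN, the GTPase of nuclear transport, had 164 against 163 FPKM, 178 against 186 FPKM and 503 against 531 FPKM.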
